A study of Mus musculus with 4 samples.

Results

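The comparison described here is knockout heart against wild-type heart in mice that lack MG56, at postnatal day 9. It covers every gene that the array reads with a probe set annotated to that gene alone: 18193 genes in all, of which 11478 were measured in heart. MG56 is another name of Hhatl, a gene of striated muscle whose product sits in the membrane of the endoplasmic and sarcoplasmic reticulum and is related to the acyltransferases of the membrane-bound O-acyltransferase family. The 4 arrays of the series hold RNA of the tibialis anterior muscle and of the heart of MG56-knockout and wild-type mice on the C57BL/6J background. Per the series' design text the RNA of 3 knockout mice was pooled, and that of wild-type mice as well, for which the sources used here give no number. The 2 groups used here are therefore 1 pool of MG56-knockout hearts and 1 pool of wild-type hearts, both untreated as far as the labels say and both taken at postnatal day 9. The sources used here do not say how the knockout allele was made.

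At this age the mouse heart is leaving its growth by cell division. Heart muscle cells finish a last round of DNA synthesis and become enlarged, often binucleate cells, while fibroblasts and endothelial cells go on dividing. The ventricle exchanges fetal isoforms such as Myh7 and Tnni1 for adult ones such as Myh6 and Tnni3 under the influence of thyroid hormone, and its fuel supply moves towards fatty acids and ketone bodies from milk. Glucocorticoids, insulin-like growth factors and the circadian clock also shape this period.

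Each value is a signal in arbitrary units, and a ratio is log2 of the knockout over the wild-type signal, after signals under a floor of 101.3 had been raised to it. With 1 array per side there is no replicate error, so no test was possible and the ratios compare 2 pools of RNA. The difference between the brightest and the next probe set of a gene gives the only measure of error within these 2 arrays. Over 5241 genes with 2 or more measured probe sets it had an SD of 0.34 on the log2 scale. It does not cover variation between mice.

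Of the 11478 genes, 38 (0.331%) had at least 2 times the wild-type signal in the knockout pool and 137 (1.19%) were at least 2-fold lower. At 3-fold the counts were 3 higher (0.0261%) and 18 lower (0.157%), and at 1.5-fold they were 308 higher (2.68%) and 480 lower (4.18%). The median log2 ratio of all measured genes was -0.0017, so the arrays shared a common scale. Of all measured genes 5701 lay above 0 and 5770 below. Counts in the lists that follow are to be read beside these numbers and the shares above. The targeted gene was lower in the labelled knockout, since Hhatl read 880 in the knockout pool and 2110 in the wild-type pool, 2.40-fold lower. Its only probe set cannot be placed relative to the deleted part, so the signal that remains says nothing about the allele. Of the 18 genes of hedgehog signalling and of the acyltransferase family that were measured, Hhatl alone passed 1.5-fold, and the median ratio was 0.01.

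**Figure D1:**
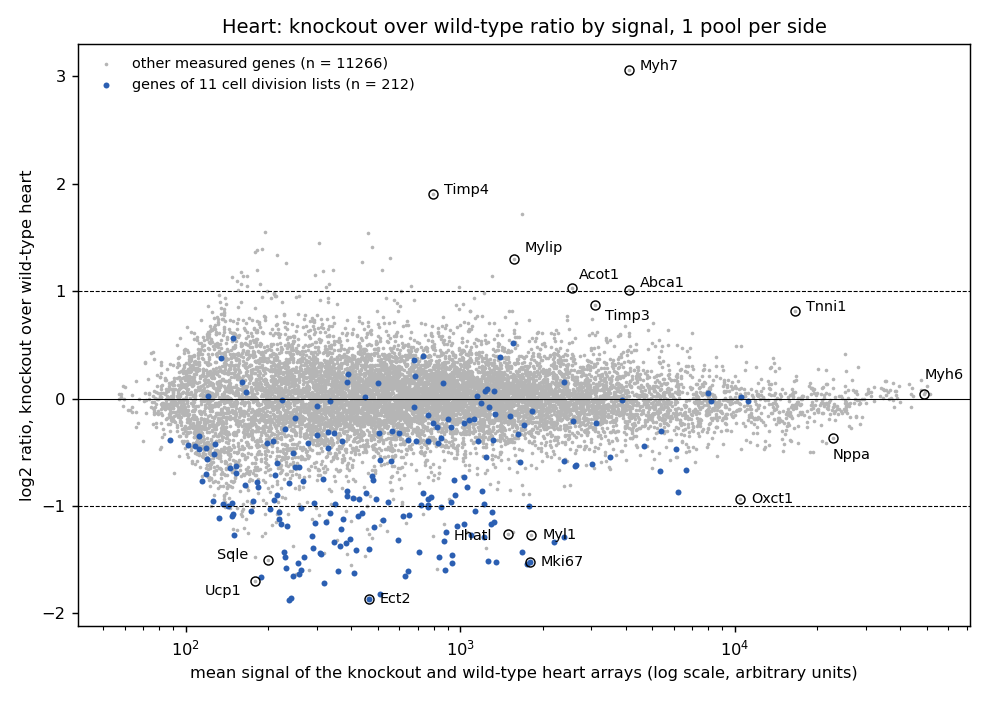
Log2 ratio of knockout over wild-type heart (y axis) against the mean signal of the 2 heart arrays (x axis, log scale) for 11478 measured genes, 1 point per gene, with 212 genes of cell division in blue, selected genes ringed and 2-fold marked by dashed lines. The blue points lie mostly below 0, and Myh7 stands alone above 3 on the log2 scale.

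Genes of cell division were lower in the knockout heart, most of all those of the mitotic spindle and the mitotic kinases. Of 212 measured genes in 11 lists of cell division, 77 were at least 2-fold lower and 0 at least 2-fold higher. At 1.5-fold, 128 were lower (60.4%, beside 4.18% of all measured genes) and 0 higher. The other 60 genes that were 2-fold lower came from the 11266 measured genes outside these lists. In bulk RNA, fewer dividing cells and less of these transcripts per cell cannot be told apart. In the tibialis anterior pools the medians of the spindle, mitotic kinase and replication lists were -0.75, -1.16 and -0.55, and the difference between the tissues was not tested.

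The spindle list holds the machinery of the mitotic spindle and of cytokinesis. Of its 30 measured genes, 28 were 1.5-fold lower and 24 of them 2-fold lower, with a median of -1.29. Ect2, the exchange factor that switches on RhoA at the cleavage site, had a signal of 200 in the knockout pool and 730 in the wild-type pool, 3.65-fold lower. Its partner Racgap1, a subunit of the centralspindlin complex, read 148 and 487. Racgap1 was thus 3.28-fold lower, and its second probe set had a ratio of -1.23. Depdc1a, a gene of mitotic cells, read 226 and 796, and the spindle motor gene Kif11 read 178 and 540. These are dim genes: with the floor at the upper quartile of signals the ratios of Racgap1 and Kif11 were -0.05 and -0.19, and those of Ect2 and Depdc1a -0.63 and -0.75. Spag5, which encodes a spindle protein, fell under the floor in the knockout and was at least 3.15-fold lower. Kif2c, which encodes a microtubule-depolymerising kinesin, had the lowest ratio of all measured genes on its brightest probe set, 102 against 374. Its other probe sets gave ratios of -0.10 and -0.65, so the size for Kif2c depends on the probe set.

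Mitotic kinases and their partners were as low. All 14 measured genes were at least 1.5-fold lower, 11 of them 2-fold, and the median was -1.31. Melk, a kinase of proliferating cells, read 105 and 380, always knockout before wild type, 3.61-fold lower. The survivin gene Birc5 read 320 and 972, and its partner in the chromosomal passenger complex Cdca8 read 480 and 1388. Mki67, the proliferation marker of the chromosome surface, read 929 and 2669. The smallest difference of the group was that of Mastl, the greatwall kinase, with a ratio of -0.81.

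At the centromere and kinetochore, where microtubules attach to chromosomes, 19 of 29 genes were 1.5-fold lower (median -0.89). The lowest were genes of the Ndc80 complex of the outer kinetochore: Nuf2 read 304 and 952, 3.13-fold lower, and Spc24 read 119 and 373. Other kinetochore genes, such as Mis12 and Zwint with -0.34 and -0.33, were within 1.5-fold. The centromeric histone gene Cenpa, with 2085 and 3205, was 1.54-fold lower, or at -0.49 taking the median of its probe sets. Of the 19 genes of the spindle checkpoint and the anaphase-promoting complex, 8 were lower (median -0.40). Among them were the checkpoint kinase gene Bub1 (200 and 617, or -0.39 with the floor at the upper quartile) and the activator gene Cdc20 (911 and 2460). Among condensin and cohesin genes 7 of 15 were lower (median -0.57). Cdca5, which encodes the cohesin protector sororin and read 126 and 390, was the lowest of them.

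Genes of the S phase were lower by smaller amounts than those of the spindle. Of 39 genes of replication licensing and the fork, 24 were 1.5-fold lower and 9 of them 2-fold (median -0.71). The helicase subunit gene Mcm5 read 637 and 1432, 2.25-fold lower, and the sliding clamp gene Pcna 5135 and 8121, 1.58-fold lower. Mcm2, another subunit of the same helicase, read 760 and 594 on its brightest probe set and 370 and 667 on the next, so its direction depended on the probe set. In the group of nucleotide supply 4 of 10 genes were lower (median -0.32). These were thymidine kinase Tk1 (256 and 675, or -0.52 with the floor at the upper quartile), deoxycytidine kinase Dck (395 and 844) and the ribonucleotide reductase subunits Rrm2 (1386 and 3396) and Rrm1 (774 and 1288). Repair genes of the S phase had 6 of 15 lower (median -0.46), and 4 of 7 histone and chromatin genes were lower (median -0.67).

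Of 19 cyclins, cell cycle kinases and their regulators, 9 were 1.5-fold lower (median -0.55). Ccna2, the cyclin of S and G2 phase, read 698 and 2001, and Cdk1, the kinase of mitosis, 709 and 1731. Ccnd1, a cyclin of G1 phase, read 2050 and 3173, with ratios of -0.21 and -0.51 on its other probe sets. Ccnd2, another D cyclin, read 8086 and 8236. These D cyclins thus lay nearer to the wild type than Ccna2, but Ccne2, a cyclin of the entry into S phase, was at -0.92 (-0.17 with the floor at the upper quartile). Pkmyt1, which encodes an inhibitory kinase of Cdk1, was at -0.01. Under other settings of floor, scaling or probe set choice its ratio was as low as -1.76, so its size depends on the setting. Of 15 cell cycle transcription factors 5 were lower (median -0.30). E2f7, a repressor of the E2F family, read 143 and 397. Foxm1, an activator of mitotic genes, read 144 and 277, but as the median over its probe sets its ratio was -0.58, short of 1.5-fold.

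Inhibitors of the cell cycle had no common direction. Of 14 genes 1 was 1.5-fold higher and 2 lower, with a median of 0.11. The higher one was Btg2, an antiproliferative gene, with 1309 and 845, and its second probe set gave a ratio of 0.66. The lower ones were Cdkn2c (936 and 1630), an inhibitor of the D cyclin kinases, and Rbl1 (435 and 777), a relative of the retinoblastoma gene. Cdkn1b, which encodes p27, read 3651 and 2737, and Cdkn1a, which encodes p21, read 856 and 938. Outside the lists, Mxi1, a repressor that competes with Myc for its partner Max, read 1916 and 1089, with ratios of 0.81 and 0.91 on its 2 probe sets. Myc itself had the highest ratio of the cell cycle transcription factors, 0.56, short of 1.5-fold.

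**Figure D2:**
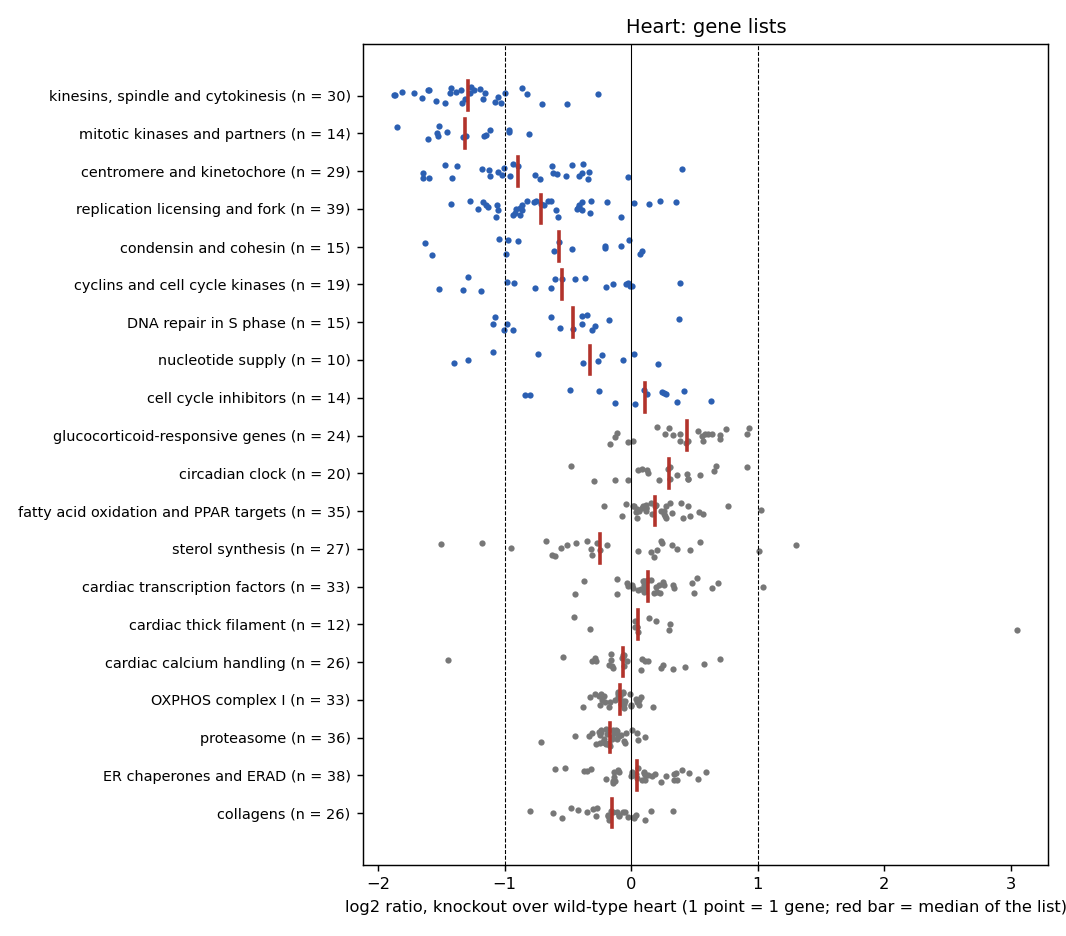
Log2 ratio of knockout over wild-type heart for the measured genes of 20 lists, 1 point per gene, with the number of genes in brackets and the list median as a red bar; blue lists are those of the cell cycle, and dashed lines mark 2-fold. Medians run from -1.31 for the mitotic kinases to 0.44 for glucocorticoid-responsive genes.

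Promoters of mitotic genes are known to carry a cell cycle homology region, the site by which the DREAM and MuvB complexes repress them in resting cells, while genes of the S phase more often carry E2F sites. Promoters of low members that carry these letters are shown here. Each was taken from RefSeq (assembly GRCm38.p6) and runs from 250 bases before to 30 bases after the start of the gene, 5′ to 3′ on the strand of the gene. Capitals mark TTTGAA, or TTCAAA where it lies on the other strand, in the first 4 sequences. In the last 3 they mark the E2F letters TTCCCGCC, or GGCGGGAA where these lie on the other strand. The genes are the lowest of the spindle list, and of the replication and repair lists, among those whose promoter holds the letters and whose measured probe sets were all 1.5-fold lower. Genes without the letters were passed over, Mcm5 among them, so the shown promoters say nothing of how common the letters are. They lie at chr3:27153849-27154128 (minus strand, Ect2), chr3:159495183-159495462 (plus, Depdc1a), chr15:99651627-99651906 (minus, Racgap1) and chr11:78301341-78301620 (plus, Spag5). The others lie at chr17:56303087-56303366 (plus, Uhrf1), chr10:128014965-128015244 (plus, Prim1) and chr16:23127701-23127980 (minus, Rfc4). Of the last group, Uhrf1, which guides the copying of DNA methylation, read 328 and 719, the primase gene Prim1 542 and 1026, and the clamp loader gene Rfc4 516 and 949.
Ect2: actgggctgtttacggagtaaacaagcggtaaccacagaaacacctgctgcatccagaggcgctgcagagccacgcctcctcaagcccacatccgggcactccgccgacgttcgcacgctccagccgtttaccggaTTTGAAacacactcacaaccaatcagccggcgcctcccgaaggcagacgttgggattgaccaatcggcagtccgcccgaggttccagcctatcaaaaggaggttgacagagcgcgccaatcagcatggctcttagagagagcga
Depdc1a: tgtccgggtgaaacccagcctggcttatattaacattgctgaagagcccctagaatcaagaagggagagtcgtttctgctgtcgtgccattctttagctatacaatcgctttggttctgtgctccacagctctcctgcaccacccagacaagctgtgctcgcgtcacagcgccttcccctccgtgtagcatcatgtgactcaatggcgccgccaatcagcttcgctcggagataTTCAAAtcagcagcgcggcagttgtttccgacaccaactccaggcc
Racgap1: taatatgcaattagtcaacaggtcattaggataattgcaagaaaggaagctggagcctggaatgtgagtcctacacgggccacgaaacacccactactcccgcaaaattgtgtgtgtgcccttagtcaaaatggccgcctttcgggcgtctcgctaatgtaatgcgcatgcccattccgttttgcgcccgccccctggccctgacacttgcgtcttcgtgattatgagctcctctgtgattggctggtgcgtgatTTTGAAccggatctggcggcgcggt
Spag5: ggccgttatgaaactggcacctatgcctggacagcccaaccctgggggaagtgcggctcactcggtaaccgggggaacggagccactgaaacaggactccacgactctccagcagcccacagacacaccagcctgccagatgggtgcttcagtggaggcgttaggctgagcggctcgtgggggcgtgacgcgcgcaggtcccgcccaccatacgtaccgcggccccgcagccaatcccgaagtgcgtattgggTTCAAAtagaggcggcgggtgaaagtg
Uhrf1: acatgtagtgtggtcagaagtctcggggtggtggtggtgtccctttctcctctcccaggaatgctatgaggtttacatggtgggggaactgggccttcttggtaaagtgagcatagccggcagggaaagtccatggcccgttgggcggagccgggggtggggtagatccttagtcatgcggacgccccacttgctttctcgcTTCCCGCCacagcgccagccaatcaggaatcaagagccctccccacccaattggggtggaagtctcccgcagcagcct
Prim1: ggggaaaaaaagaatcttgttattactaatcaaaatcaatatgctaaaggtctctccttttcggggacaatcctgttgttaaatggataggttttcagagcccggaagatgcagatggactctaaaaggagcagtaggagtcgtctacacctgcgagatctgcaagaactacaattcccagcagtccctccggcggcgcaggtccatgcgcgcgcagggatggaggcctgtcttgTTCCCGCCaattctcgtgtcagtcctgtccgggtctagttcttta
Rfc4: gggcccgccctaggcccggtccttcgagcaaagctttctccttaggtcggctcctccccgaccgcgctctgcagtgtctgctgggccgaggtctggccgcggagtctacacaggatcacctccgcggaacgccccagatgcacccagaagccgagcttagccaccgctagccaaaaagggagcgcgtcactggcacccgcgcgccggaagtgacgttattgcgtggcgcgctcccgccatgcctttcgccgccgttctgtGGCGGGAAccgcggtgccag

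The letters TTTGAA lay on either strand of 25 of the 30 promoters found for the spindle and cytokinesis genes (83.3%), counted in windows of 300 bases with 50 after the start. They lay in 5 of 10 promoters of the mitotic kinases and in 34.5% of those of the kinetochore genes. Over the promoters of measured genes the share was 11.9%, and 17.9% of the 32851 promoters of RefSeq held them. In the replication list the share was 13.5%, near that of all measured genes, and in the repair list it was 0. With TTTAAA counted too, which reads the same on both strands, the shares were 86.7% in the spindle list and 19.4% over measured genes. The E2F letters (TTCCCGCC or TTTCCCGC, either strand, overlapping matches counted once) lay in 53.8% of the promoters of the repair genes and 24.3% of those of the replication genes, in 0 of the 30 of the spindle genes, and in 4.85% over measured genes. Some lists held both: of 12 promoters of condensin and cohesin genes 6 held TTTGAA and 4 the E2F letters, and of 16 of cell cycle transcription factors 7 and 3. The CCAAT box was held by 62.8% of the promoters of all cell division genes and 37.3% over measured genes.

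The 173 cell division genes with a promoter in the table can be divided by these letters. The 67 with TTTGAA had a median ratio of -1.05, and 37 of them were at least 2-fold lower. The 106 without it had a median of -0.57 with 26 at least 2-fold lower. By the E2F letters the order was reversed and the distance smaller, with a median of -0.63 for 31 genes with them and -0.82 for 142 without. The spindle list is both among the lowest and the richest in TTTGAA, so letters and list membership go together here. A match describes the letters of the window and does not show that a factor binds there.

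**Figure D3:**
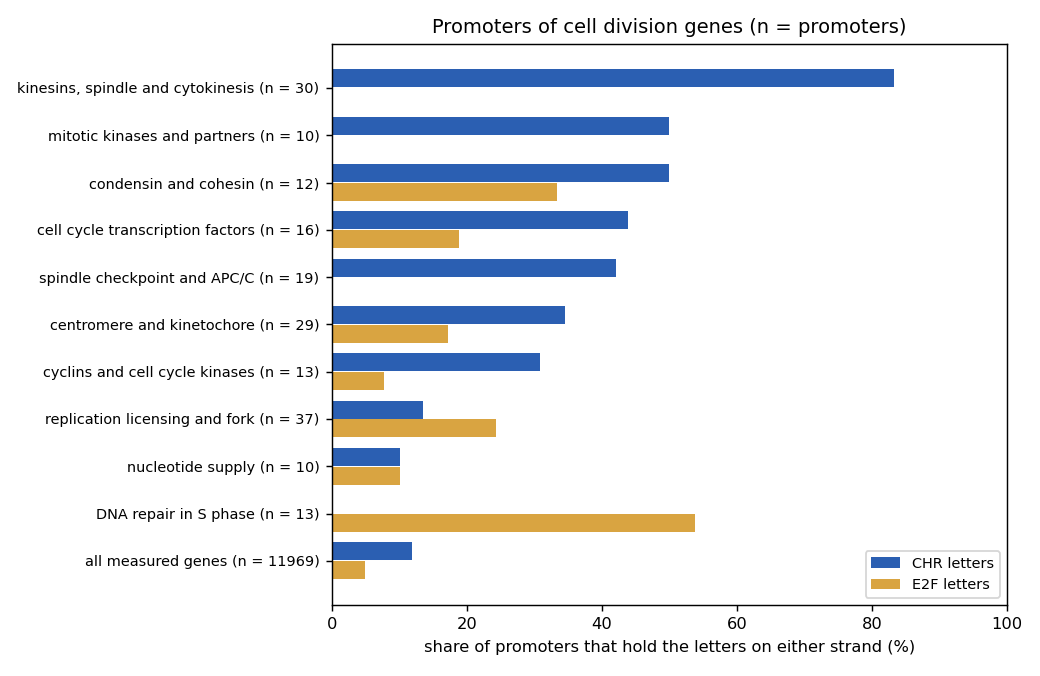
Share of promoters (x axis, percent) that hold the cell cycle homology letters (CHR, blue) or the E2F letters (yellow) on either strand, for 10 lists of cell division genes and for all measured genes, with the number of promoters in brackets. The spindle list reaches 83.3% for CHR and 0 for E2F, while the repair list reaches 53.8% for E2F and 0 for CHR.

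Genes outside the lists that were lower on all of their probe sets were in part of the same kind. They included Pclaf, which encodes a partner of the sliding clamp (686 and 1797), and Lmnb1, which encodes lamin B1 (413 and 818). Trip13, a remodeler of spindle checkpoint complexes, had ratios of -1.14 and -1.07, or -0.22 with the floor at the upper quartile. Others act in growth metabolism: Nme1, a nucleoside diphosphate kinase, read 1249 and 2317, and Tkt, the transketolase of the pentose phosphate pathway, 2730 and 4293. Odc1, the entry enzyme of polyamine synthesis, is a list member and not of this group. It read 2381 and 3737. Alone among 29 genes of the ribosome biogenesis list it passed 1.5-fold (median -0.07), and ribosomal protein genes had a median of -0.0018. Of 32 ribosomal protein genes 1 passed 1.5-fold, Rps27, which was higher with a ratio of 1.39. A lower level was therefore measured for division genes, while the lists of ribosome genes had medians near that of all genes.

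In the contractile apparatus, 1 isoform stood apart. The signal of Myh7, the slow beta myosin heavy chain of the fetal ventricle, was 7354 in the knockout pool and 886 in the wild-type pool, 8.30-fold higher and the largest ratio of all measured genes. Its adult counterpart Myh6 read 49851 and 48296 on one probe set and 5503 and 5344 on another, with ratios of 0.05 and 0.04. The knockout pool thus had more Myh7 at a similar level of Myh6. Tnni1, the slow skeletal troponin I of the fetal heart, read 21172 and 12060, 1.76-fold higher, while the adult Tnni3 had a ratio of 0.06. Myh7 and Tnni1 were each measured by 1 probe set, so neither has a second reading on these arrays. Of 19 measured genes of thyroid hormone signalling and response, Myh7 alone was 1.5-fold higher and Dio2 alone lower (-1.03), with a median of 0.04. The receptor gene Thra had a ratio of 0.38, and Thrb gave no measured value. The part of thyroid hormone in these ratios was not tested.

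No other gene of the thick or thin filament reached 1.5-fold, among 12 and 15 measured. The ventricular light chain gene Myl2 read 36032 and 35303, and the troponin T gene Tnnt2 52162 and 47981. The atrial light chain genes went the other way, Myl4 with 10924 and 14950 and Myl7 with 13554 and 17025, although short of 1.5-fold. Acta1, the skeletal actin isoform, read 1849 and 2714. The 26 genes of the Z-disc, costamere and intercalated disc lay within 1.5-fold without exception (median -0.02). Fetal isoforms therefore did not share a direction, as Myh7 and Tnni1 were higher while Acta1 and Myl4 lay lower.

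The list of natriuretic peptides and cardiac stress genes held 1 higher gene, Myh7, and 1 lower gene, Tnc. Nppa, the atrial natriuretic peptide gene, read 19919 and 25638, and Nppb, the brain natriuretic peptide gene, 9241 and 10361. Corin, which encodes the protease that activates the atrial peptide, was 1.62-fold higher at 6231 and 3837. The Tnc gene, for a matrix glycoprotein of injured and developing heart, had a ratio of -0.66. A floor at the 75th percentile gave it -0.31. The median of these 15 genes was -0.14.

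**Figure D4:**
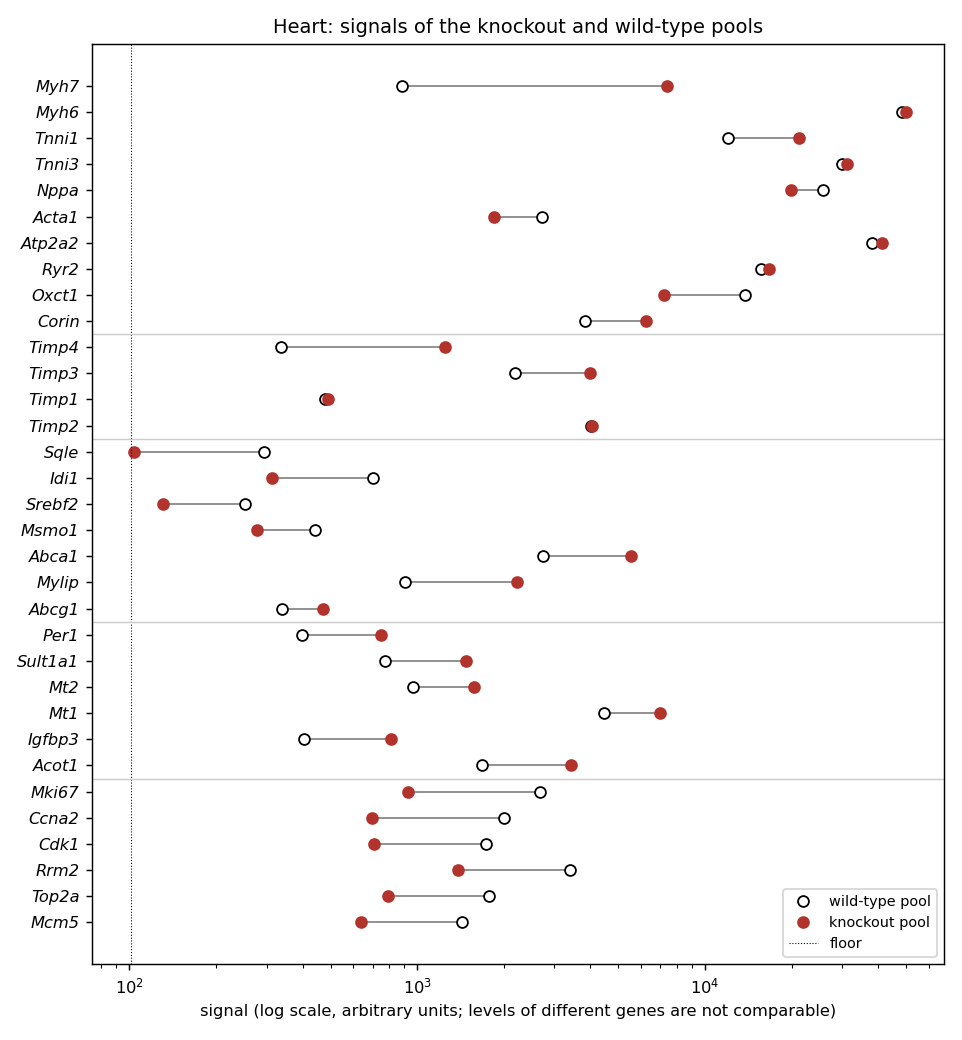
Signals of the knockout pool (red) and the wild-type pool (open) for 33 genes on a log axis in arbitrary units, with grey rules between genes of the myocardium, of matrix inhibitors, of sterol handling, of hormone and fuel responses and of cell division. A dotted line marks the floor, and the distance between the 2 points of a row is the ratio; Myh7 and Timp4 have the widest gaps to the right and the division genes lie to the left in the knockout.

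Transcription factors of the heart lay slightly higher as a group in the knockout. Of 33 measured genes 27 were above 0, beside 5701 of all 11478 measured genes, with a median of 0.13. At 1.5-fold 3 were higher (9.09%, beside 2.68% of all measured genes) and 0 lower. The list also holds the BMP ligand gene Bmp10, at -0.45. Tbx5, a T-box factor of atrium, conduction system and left ventricle, read 435 and 211, 2.06-fold higher. A dimmer probe set of Tbx5 read 134 and 82 and gave 0.40, with its wild-type signal raised to the floor. Irx4, a ventricular homeobox factor, read 1236 and 768. Ppargc1a, the coactivator of mitochondrial genes, read 5865 and 3770, and 5 probe sets gave ratios from 0.30 to 0.64, with a median of 0.56, short of 1.5-fold. The cardiac factor Gata6 lay between 0.50 and 0.61 on 3 probe sets, and the coactivator gene Myocd at 0.52 and 0.46. Hand2 and Gata4 had ratios of 0.48 and 0.33. Other factors of the list lay close to the wild type, with ratios of 0.10 for Nkx2-5, -0.02 for Mef2c and 0.10 for Tbx20.

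Few genes of calcium handling, a task of the sarcoplasmic reticulum where MG56 resides, and of ion channels differed in the heart. Of 26 calcium handling genes, 1 was 1.5-fold higher and 1 lower (median -0.06). The calcium pump gene Atp2a2 read 41250 and 38160 on its brightest probe set, and the release channel gene Ryr2 16692 and 15688. Casq2, the cardiac calsequestrin, read 15179 and 16964. These main components thus lay well within 1.5-fold. Casq1, the calsequestrin of skeletal muscle and a marker of it, read 207 and 566, 2.73-fold lower, but at -0.26 with the floor at the upper quartile of signals. Camk2a, a calcium-dependent kinase, had a ratio of 0.70, and of 0.30 as the median over its 3 probe sets. All 21 ion channel genes lay within 1.5-fold (median 0.04), the potassium channel gene Kcnj5 being highest at 1963 and 1317.

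Matrix genes as groups differed little, while 2 inhibitors of matrix metalloproteinases were higher. Timp4, the inhibitor most typical of heart, read 1254 and 336, 3.74-fold higher, and its second probe set read 666 and 161, 4.14-fold higher. Timp3, which binds to the matrix, read 3985 and 2184 on its brightest probe set, and its other probe sets had ratios of 0.93, 0.71 and 0.38. The 6 probe sets of these genes thus pointed the same way. Timp1 and Timp2 had ratios of 0.03 and 0.01, so not all members of the family were higher. The gelatinase gene Mmp2 read 3207 and 2423, and Adamts8, a protease with thrombospondin repeats, 111 and 188.

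Collagen genes lay slightly lower, with a median of -0.15 over 26 genes and 2 that were 1.5-fold lower. Col1a1, the main chain of fibrillar collagen, read 3007 and 4172. Col8a2 read 104 and 181, a knockout signal at the floor. Elastin, Eln, had ratios of -0.49 and -0.49 on its 2 probe sets. The 12 fibroblast markers had a median of -0.07 and none passed 1.5-fold.

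Sterol genes differed in both directions. Of 27 genes 2 were 1.5-fold higher (7.41%, beside 2.68% of all measured genes) and 6 lower (22.2%, beside 4.18%). The median was -0.25 (-0.08 with the median over the probe sets of each gene). Enzymes of synthesis made up most of the lower ones. Sqle, the squalene epoxidase, read 104 and 294, 2.84-fold lower with its knockout signal at the floor. Idi1, the isopentenyl diphosphate isomerase, read 312 and 705, and its second probe set 165 and 413. With the floor at the upper quartile its ratio was -0.58, just short of 1.5-fold. Msmo1 and Dhcr7, enzymes of the late steps, read 279 and 443 and 157 and 241. Srebf2, the transcription factor that drives this pathway, read 131 and 253. As the median over its 2 probe sets its ratio was -0.51, short of 1.5-fold. Not every enzyme was lower: 7 of the 18 measured enzymes lay above 0, among them Mvk at 0.36 and Lss at 0.20.

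Of 3 genes that carry sterol out of the cell or remove its receptor, 2 were 1.5-fold higher. Abca1, the exporter of cholesterol to apolipoprotein, read 5518 and 2745, 2.01-fold higher, and a dimmer probe set gave 0.60. Mylip, which encodes the ubiquitin ligase that degrades the low density lipoprotein receptor, read 2231 and 906, 2.46-fold higher. Abcg1, a second exporter, read 469 and 339 and fell short, with a ratio of 0.47. Apoe, the apolipoprotein that takes up exported cholesterol, was outside the list and read 3793 and 2269. Dividing the list by role and adding Apoe were done after these values were seen. The letters TCACCCCAC of the sterol response element lay in 1 of 27 promoters of the list (3.70%), beside 0.560% over measured genes.

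Fuel genes gave a modest, broad picture. Of 35 genes of fatty acid oxidation and of targets of the PPAR receptors 32 lay above 0 with a median of 0.19. Over all 11478 measured genes, 5701 lay above 0. At 1.5-fold 2 of the 35 were higher (5.71%, beside 2.68% of all measured genes). Acot1, an acyl-CoA thioesterase, read 3412 and 1674, 2.04-fold higher. Slc27a1, a fatty acid transporter, read 658 and 388, but its other probe set, brighter on the heart arrays, gave 0.35. The fatty acid uptake gene Cd36 read 23463 and 19551, and Cpt1a, which controls entry into mitochondria, 2224 and 1696. Over the settings of floor, scaling and probe set choice the ratio of Cpt1a ran from 0.08 to 0.39. Acadm and Hadhb, which encode enzymes of beta-oxidation, had ratios of 0.06 and 0.12.

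Oxct1, the mitochondrial enzyme that activates the ketone body acetoacetate for oxidation, read 7206 and 13781, 1.91-fold lower. Its 4 probe sets had ratios of -0.94, -1.02, -0.94 and -1.03. Among 27 genes of the citric acid cycle and pyruvate entry Oxct1 alone passed 1.5-fold (median -0.12). Complex I had 26 of 33 genes below 0 with a median of -0.09, complexes II to V a median of -0.03, and none of the genes of either list reached 1.5-fold. In glycolysis and glycogen metabolism 1 of 31 genes passed 1.5-fold, Ppp1r3c, a glycogen-targeting subunit of protein phosphatase, with 8449 and 5532, or at 0.56 taking the median of its probe sets. Alas1, the entry enzyme of haem synthesis outside these lists, read 3874 and 6076 on one probe set and 547 and 1172 on the other.

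Of 24 measured genes that respond to glucocorticoids, 8 were 1.5-fold higher in the knockout heart (33.3%, beside 2.68% of all measured genes) and 0 lower. The other 16 lay within 1.5-fold, and the median was 0.44. Sult1a1, a sulfotransferase, read 1474 and 771, 1.91-fold higher. The metallothionein genes Mt2 and Mt1, which bind zinc, read 1581 and 971 and 6968 and 4465. Cebpb, a transcription factor of stress and metabolism, read 1416 and 842, and 0.62 on its second probe set. Per1 and Ddit4 were also among the 8, with ratios of 0.91 and 0.61. Among the 16 that did not reach 1.5-fold, Tsc22d3 read 4798 and 3547, Klf15 389 and 270 and Dusp1 2632 and 1775. Fkbp5 and Pdk4, also of the 16, lay at the wild type with ratios of -0.03 and 0.02. Cebpd had a ratio of 0.59, but its second probe set gave -0.48 with the knockout signal under the floor. Fam107a, another of the 8, had a ratio of 0.70, or 0.46 taking the median of its probe sets.

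The clock genes overlapped with this group through Per1. Of 20 genes 3 were 1.5-fold higher and 16 lay above 0 (median 0.30). Per1 read 748 and 397, 1.88-fold higher, Per2 465 and 295 (0.58 taking the median of its probe sets, short of 1.5-fold), and Nfil3, a repressor of the clock output, 966 and 606. Dbp, an output gene that peaks at a time of day opposite to Nfil3, had ratios of -0.47 and -0.47 on its 2 probe sets. The sources used here give no time of day for the hearts, and its part in these ratios was not tested.

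Insulin and growth factor signalling had 4 of 30 genes higher by 1.5-fold (13.3%, beside 2.68% of all measured genes). Lower by 1.5-fold was 1 gene (3.33%, beside 4.18%), and the median was 0.10. Igfbp3, a binding protein that holds insulin-like growth factors, read 811 and 404, with ratios of 1.01 and 1.20 on its 2 probe sets. Foxo4 read 341 and 176 and the adaptor gene Irs2 242 and 142. Receptors lay higher by less, Insr with 4172 and 2864, Igf2r with 4496 and 3008 and Igf1r with 1555 and 1199. Over the settings of floor, scaling and probe set choice the ratio of Insr ran from 0.12 to 0.57. The growth factor gene Igf1 read 3569 and 3692. Trib3, a pseudokinase of stress responses, had a ratio of 0.93 on a probe set that can match several transcripts and -0.33 on its other one. Stat5a, a transducer of growth hormone signals, read 158 and 274. In the related FoxO and atrophy list the median was 0.27, and 5 of 25 genes were higher (20.0%, beside 2.68% of all measured genes). They were Mt1, Mt2, Irs2 and Foxo4, named above, and Fbxo31, a ubiquitin ligase subunit at 0.64, or 0.46 taking the median of its probe sets.

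Chaperone genes lay close to the wild type, while genes of the stress response and of amino acid supply went both ways. The 38 genes of endoplasmic reticulum chaperones and degradation had a median of 0.05, with 1 higher and 1 lower. The main chaperone gene Hspa5 read 13074 and 12185, and Dnajb9, a co-chaperone, 3546 and 2349. Ddit3, which encodes the stress factor CHOP, read 750 and 672. Hspa5 and Ddit3 thus lay within the SD between probe sets, and Dnajb9 was the single higher gene of its list. The 36 proteasome genes had a median of -0.17 and 32 lay below 0, beside 5770 of all 11478 measured genes. Of 31 genes of the integrated stress response, 3 were higher (9.68%), Trib3, Cebpb and Ddit4, and 4 lower (12.9%, beside 4.18% of all measured genes), with a median of -0.06. The 4 lower ones, Mthfd2, Phgdh, Psat1 and Slc7a5, also belong to the list of serine synthesis and amino acid supply, of which they are 21.1% (4 of 19, with 0 higher and a median of -0.15). Phgdh, the entry enzyme of serine synthesis, read 170 and 274, and its 4 probe sets lay between -0.83 and -0.54. Slc7a5, a transporter of large neutral amino acids, read 230 and 375.

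Among autophagy and lysosome genes 2 of 33 were higher and 0 lower (median 0.04). They were Flcn, the folliculin gene (2730 and 1750), and Atg7, an activating enzyme of autophagy (230 and 151), both with second probe sets past 1.5-fold. The ratio of Atg7 was 0.57 with quantile normalization of the heart arrays, short of 1.5-fold. The 24 hypoxia-inducible genes had 1 higher and 0 lower. Heat shock genes had none of 26 past 1.5-fold, and p53 targets 1 of 23 in each direction. Interferon-stimulated and antigen presentation genes had 1 of 28 higher, Rsad2, with a ratio of 0.61 (0.49 taking the median of its probe sets).

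Apart from immediate early genes, signalling genes differed singly. Of 23 immediate early genes 19 lay above 0, beside 5701 of all 11478 measured genes, with a median of 0.25. At 1.5-fold 2 were higher (8.7%, beside 2.68% of all measured genes) and 0 lower. They were Btg2, named above, and Nr4a2 at 0.72, or 0.28 taking the median of its probe sets. Rgs2, which shortens the signals of angiotensin and adrenergic receptors, read 3099 and 1818, and its 3 probe sets had ratios of 0.77, 0.68 and 0.77. Gfra1, the receptor of the nerve growth factor GDNF, was at least 2.61-fold higher, with 265 in the knockout and a wild-type signal under the floor. Wnt7a read 308 and 122, 2.52-fold higher, and stood alone past 1.5-fold among 25 Wnt genes. Pdgfc, a growth factor of fibroblasts, read 159 and 301, with -0.27 on its second probe set. Both Wnt7a and Pdgfc were dim genes. Notch signalling had none of 17 genes past 1.5-fold, and TGF-beta and BMP signalling 1 of 33. That gene was Id4, with a ratio of -0.98 (-0.04 taking the median of its 3 probe sets).

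Some of the remaining genes with the largest ratios upwards were dim. Farsa, Krtap12-1 and Gdap10 were among the 15 largest, with ratios of 1.45, 1.37 and 1.27. Gdap10 was at 0.39 with the floor at the 75th percentile. Ms4a4d, a gene of the family of Cd20, read 687 and 236, and Adh1, an alcohol dehydrogenase that also oxidises retinol, 694 and 262. Slc10a6, a transporter of steroid sulfates, was at least 2.94-fold higher, with 298 against a signal under the floor. A floor at the 75th percentile gave Ms4a4d and Adh1 ratios of 0.54 and 0.56, short of 1.5-fold. Bad, an inducer of cell death, read 788 and 318 on one probe set, a ratio of 1.31, and 482 and 449 on the other, a ratio of 0.10. Shld1, a subunit of the shieldin complex of DNA repair, read 720 and 315 and, on its second probe set, 623 and 244. Dpep1, a membrane dipeptidase, read 632 and 359 and, on its second, 631 and 290.

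Markers of heart cells were present in both pools, and most cell types differed little. Endothelial markers had a median of -0.02 (14 genes), fibroblast markers -0.07 (12), pericyte and smooth muscle markers -0.05 (11) and macrophage markers 0.05 (15). In these 4 lists Folr2, a folate receptor of resident macrophages, alone passed 1.5-fold, and was at least 1.95-fold lower, with 198 in the wild type and a knockout signal under the floor. Atrial markers had a median of -0.05 and ventricular ones 0.15. The ventricular list holds Myh7 and Irx4, so its median is not independent of the genes above. Aldh1a2, the retinoic acid enzyme of the epicardium, read 641 and 1036 and stood alone past 1.5-fold among 11 epicardial markers.

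Many markers of tissue next to the heart were under the floor, and the others were read unequally. Of 25 skeletal muscle markers 6 were measured, 3 of them below 0, with a median of -0.21. The summed signal of the whole list was 25046 in knockout and 25135 in wild-type hearts. This sum adds the signals of all members, whatever cells they come from, so it does not measure adjoining muscle. Casq1 and Myl1, the fast light chain (1062 and 2568), were 2-fold lower. Mybpc2 had a ratio of -0.44, while Ckm, Tnni2 and Myh2 had ratios of 0.13, 0.08 and 0.01. Fat markers went both ways. Ucp1, by which brown fat makes heat, read at least 3.24-fold lower, with 328 in the wild type and a knockout signal under the floor. Car3 read 182 and 394 and Dio2 144 and 295, while Pparg, the regulator of fat cells, was at least 2.26-fold higher with 229. Of 13 fat markers on the array 7 were measured, and the summed signal of the whole list was 44059 in knockout and 40826 in wild-type hearts. That sum includes Ppargc1a, counted above among the factors of the heart, and Fabp4, which is also in the endothelial list. It therefore does not measure adjoining fat. Whether adjoining fat or muscle in the dissections had a part in Casq1, Myl1, Ucp1 or Dio2 was not tested. Of 10 lung epithelium markers none was measured, and of 9 thymocyte markers 2.

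Sex-linked transcripts were unequal too. From the Y chromosome, Eif2s3y, Uty and Kdm5d read 1803 and 816, 480 and 210, and 229 and 140, and Xist, which is expressed from the inactive X chromosome, 12989 and 16847. Both kinds of transcript were present in both pools. The sources used here do not say how many males and females went into each pool, and the part of sex in the other ratios was not tested. Neutrophil genes were measured in 3 of 12 cases. S100a9 was 1.61-fold higher and S100a8 read 505 and 338, at a summed level of 1553 and 1191 for the whole list.

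Second probe sets of a gene repeated the direction more often for cell division than for other genes. Of 63 cell division genes that were 1.5-fold lower and had a second measured probe set, 63 were lower on it too, and 46 by at least 1.5-fold. Outside cell division, 85 of 114 lower genes went the same way on the second probe set, 32 by 1.5-fold and 4 by 1.5-fold in the opposite direction. Of 115 higher genes 95 went the same way, 25 by 1.5-fold and 1 opposite. At 2-fold the direction was shared by 37 of 37 lower cell division genes. Among other genes it was shared by 15 of 17 lower and 9 of 10 higher ones. The groups were not matched for the size of the ratio. The agreement rests on the same 2 RNA pools, so it speaks of the reading and not of the mice. The difference also shrank with signal. Its absolute value stayed below 0.88 in 95% of genes whose second probe set was under 200, and below 0.35 where it reached 1600.

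**Figure D5:**
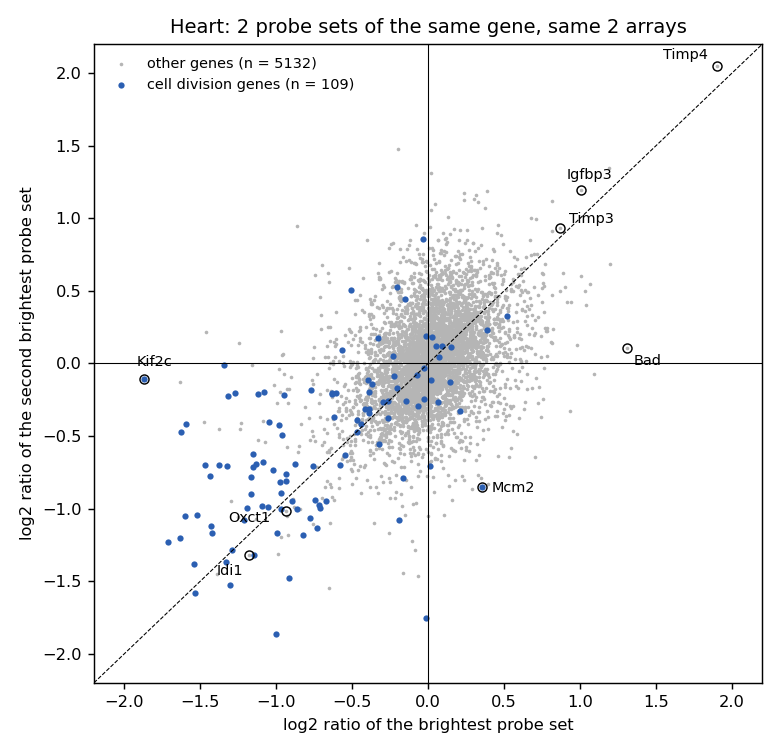
Log2 ratio of the second brightest probe set (y axis) against that of the brightest (x axis) for 5241 genes with 2 or more measured probe sets, with 109 cell division genes in blue, the line of equality dashed and selected genes ringed. Timp4, Igfbp3, Timp3, Oxct1 and Idi1 lie near the line, while Bad, Kif2c and Mcm2 lie far from it.

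By the strictest reading, in which all of 2 or more measured probe sets had to pass 1.5-fold in 1 direction, 18 genes were higher and 64 lower. Of the 64 lower genes 40 were in the cell division lists, and the other 24 included Idi1, Oxct1, Lmnb1, Pclaf, Nme1, Tkt and Alas1. The 18 higher genes included Timp4, Shld1, Igfbp3, Dpep1, Abca1, Mxi1, Rgs2, Btg2, Cebpb, Flcn and Atg7. They also included Car4, a membrane carbonic anhydrase with ratios of 0.76 and 0.62, and Arrdc4, an arrestin relative that restrains glucose uptake, with 0.72 and 0.75. With the floor at the upper quartile Arrdc4 and Dpep1 were at 0.28 and 0.42. Myh7, Tnni1, Mylip, Acot1, Per1 and Hhatl could not enter this count because each had 1 measured probe set.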

How the data were processed

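Affymetrix mouse arrays of 4 pooled RNA samples were used, 1 per genotype and tissue. The table deposited by the authors gives a linear signal intensity for every probe set, which the submitters' processing notes credit to MAS5. The sources used here name no MAS5 version, scaling target or detection calls. Of 45037 probe sets 34945 had 1 gene symbol in the platform's annotation and were used, and 34741 of them matched RefSeq (GRCm38.p6). The 2% trimmed means of the heart arrays were 496.8 and 496.6.

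A floor was set at the median of all signals, 101.3. A gene was measured if at least 1 heart array reached it, and "at least" marks folds in which the floor replaced a signal. The brightest measured probe set, by its mean over the 4 arrays, stood for a gene. Ratios were computed with Python 3.11.15 and pandas 2.3.3, were counted at 1.5, 2 and 3-fold, and were checked on simulated arrays. Promoters came from RefSeq. Lists, members and thresholds were chosen with earlier results of these data known. Picked for naming were the targeted gene and the 15 largest ratios each way. Passed over in this ranking were unnamed and clone transcripts, immunoglobulin genes and genes with opposed probe sets. Up to 6 members per list, cardiac and stress genes chosen by name, and genes compared by probe set were picked too. Not all picked genes appear in the text. Apoe and list members named beyond these were chosen after their values were seen. Alternatives were 9 settings of floor, scaling and probe set choice.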

Additional observations from a re-analysis of the deposited data

Results flagged for a closer look

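Among the 439 genes picked for naming, 8 differed by at least 1.5-fold between knockout and wild type in opposite directions in heart and in tibialis anterior. The other measured genes were not searched, so 8 is no count over the array. Each value rests on 1 array per group, and the difference between the tissues was not tested. Mettl7a2, a methyltransferase-like gene, had a log2 ratio of 1.26 in heart and -1.35 in muscle. Genes of serine and folate metabolism were lower in heart and higher in muscle: Mthfd2 stood at -0.77 and 2.52, Psat1 at -0.62 and 2.0, and Phgdh at -0.68 and 0.61. The amino acid transporter gene Slc7a5 had -0.71 and 1.56. Sdf2l1, of the chaperone complexes of the endoplasmic reticulum, had -0.60 and 4.32, and the sterol regulator gene Srebf2 -0.95 and 0.70. The nucleoside diphosphate kinase gene Nme1, named for its agreeing probe sets, had -0.89 and 0.87. In heart, Mthfd2 and Phgdh were short of 1.5-fold on the probe set brightest in heart (-0.47 and -0.56), as were Psat1 and Srebf2 on the median of their probe sets (-0.52 and -0.51).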

How the results depend on the processing

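The floor changed the counts. At least 1.5-fold higher were 308 genes, against 1078 with the floor at the 25th percentile of signals, 99 at the 75th and 2291 without one, and lower were 480, against 1355, 128 and 2623. At 2-fold the higher genes were 38, against 279, 8 and 1344, and the lower 137, against 484, 37 and 1591. The other 6 alternatives moved none of these counts by over 1.5 times. Of 646 list medians recomputed, 603 moved by under 0.1 on the log2 scale, 40 by more, and 3, of lists at least 0.1 from 0, turned: Wnt signalling to -0.0067 with the lower floor and with none, and fat markers to 0.0846 with the higher floor. Another 14 lists with medians under 0.1 from 0 changed sign in at least 1 alternative. Of 173 named genes past 1.5-fold, 50 fell short of it in at least 1 alternative, 26 of them with the median over probe sets and 25 with the higher floor. Trib3 turned to -0.331 without probe sets that can match several transcripts. With the higher floor, which leaves out or flattens dim genes, division lists lay nearer to 0: the spindle list had a median of -0.84, mitotic kinases -1.17, replication -0.58, kinetochore -0.36, condensin -0.29, cyclins -0.28 and checkpoint -0.23 (-0.16 with the median over probe sets). Uty had a ratio of 0.03. The cause of other changes was not tested. No paired analysis was possible because each group has 1 array. Signals near the floor and the number of arrays limit the precision.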
